A study of Homo sapiens with 8 samples.

Results

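The genes described here are 10 genes of insulin signaling and its transcriptional output: the receptors INSR and IGF1R, the receptor substrates IRS1 and IRS2, the phosphoinositide 3-kinase genes PIK3R1 and PIK3CA, the transcription factors FOXO1 and FOXO3, and the leucine zipper genes TSC22D3 and TSC22D1. They were measured in HT1080 cells, a line grown from a human fibrosarcoma, on U133 Plus 2.0 microarrays from Affymetrix, where each transcript is read by 1 or more sets of short probes. All probe sets that the platform annotation assigns to these genes were taken, 35 of 54675 on the array, and they cover 9 of the 10 genes. No probe set is assigned to PIK3CA in the annotation used here, so that PIK3CA was not analysed here. The genes were chosen by name with earlier differences on these same 8 arrays already known, and TSC22D3 in particular was picked for its pattern. The levels and differences are therefore descriptions, and no test is attached to them.

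Insulin and insulin-like growth factors bind INSR and IGF1R, which phosphorylate the docking proteins IRS1 and IRS2. The docking proteins recruit PI3-kinase, made of a regulatory subunit such as the product of PIK3R1 and a catalytic one such as the product of PIK3CA, and the kinase AKT is activated in turn. AKT keeps FOXO1 and FOXO3 out of the nucleus, so FOXO target genes are transcribed when the pathway is quiet, and IRS2, INSR and TSC22D3 are known to be among such targets. TSC22D3 encodes GILZ, a small leucine zipper protein best known as a gene induced by glucocorticoids, and TSC22D1 encodes a relative of it.

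There were 8 arrays, 1 for each condition, and the cells were treated for 18 h in every case. Under normal growth conditions, in glucose-containing medium with serum, the cells received no compound (Control), 10 µM compound C (CC), 10 µM versipelostatin (VST) or 100 µM phenformin (Phen). On the other 4 arrays the medium also held 10 mM 2-deoxy-D-glucose, a glucose analog that mimics glucose shortage (2DG), without a compound or with one of them, whose dose was as above and which was given first (2DG+CC, 2DG+VST, 2DG+Phen). Compound C inhibits kinases including AMPK and the BMP receptors, versipelostatin is a microbial product and phenformin a biguanide, and the study compared how they act on the response to glucose shortage. With 1 array per condition there is no replicate check and no error can be given, and this number of arrays limits the precision of each value.

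The values are RMA log2 intensities. A level of 6 on at least 1 array was the limit for calling a probe set expressed, which held for 15503 of the 54675 probe sets and for 15 of the 35 described here. By this limit 8 genes were expressed, and INSR was not. A gene that reached the limit only in the condition where it was high must differ between conditions, so the counts below describe the 8 genes and not all 10. Each gene is represented by its expressed probe set with the highest mean, and every difference is a log2 value on one array minus that on another, so that 1 stands for 2-fold. Values below the array's own median over non-control probe sets (3.12 to 3.28) were taken as not above background. Of the markers fixed for the cell line, 6 of 8 mesenchymal genes were expressed, with VIM at 13.2 to 13.6, THY1 and COL5A1 were not, and 0 of 4 epithelial, 0 of 3 endothelial and 0 of 3 blood genes were expressed.

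Technical controls differed between the arrays. The poly-A control transcripts, meant to be added to the RNA in a fixed amount, read higher than on the 2DG array by 1.04 (log2) in 2DG+CC, 0.60 in 2DG+VST and 0.44 in 2DG+Phen, and higher than Control by 0.33 in 2DG, 0.30 in Phen, 0.12 in CC and 0.01 in VST. The median over all expressed probe sets was lower than in 2DG by 0.21 to 0.28 on these 3 arrays (differences of −0.21, −0.23 and −0.28), and within 0.1 of Control in the other comparisons. Whether these shifts have a part in the differences below was not tested, and the values were also taken after shifting each array to equal poly-A readings (below called the poly-A scale). This lowers every difference of a comparison by the same amount, so that positive differences smaller than that amount turn negative.

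TSC22D3 had the widest upward differences of these genes. Its level was 5.45 in Control, 8.89 in CC, 7.12 in VST and 9.84 in Phen, and 7.16 in 2DG, 9.61 in 2DG+CC, 5.69 in 2DG+VST and 7.41 in 2DG+Phen. As deposited, all other conditions were above Control, 2DG+VST by the least (it would lie below on the poly-A scale), and the highest levels were those of phenformin alone and of both arrays with compound C. Against Control it was higher by 4.39 in Phen, a 21.0-fold difference that ranked 1 from the top among all 15503 expressed probe sets. In CC it was higher by 3.44, or 10.9-fold, at rank 5, in 2DG by 1.71 (3.27-fold, rank 89) and in VST by 1.67 (3.18-fold, rank 98). The gene was selected with such values known, so these ranks say only where it lies.

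Under 2DG stress conditions the compounds separated on TSC22D3. Compound C was again on the high side, at 2.45 above 2DG alone (1.41 on the poly-A scale), versipelostatin was on the low side, at −1.47, and phenformin was 0.25 from 2DG alone, or −0.18 on that scale. In other terms, 2DG made a difference of 1.71 without a compound, 0.72 on top of compound C (−0.53 on the poly-A scale), −1.43 on top of versipelostatin and −2.43 on top of phenformin. The dimmer probe set 207001_x_at, at 4.22 in Control and 5.88 in Phen, gave smaller differences from Control of 1.66 in Phen, 0.58 in CC, 0.57 in VST and 0.17 in 2DG (−0.15 on the poly-A scale). From 2DG alone it gave 1.47 in 2DG+CC, 0.53 in 2DG+Phen and 0.27 in 2DG+VST (−0.33 on the poly-A scale), so that its sign with versipelostatin depends on the scaling. It did not reach the limit of 6, and the third probe set, 235364_at, was under the background limit on all 8 arrays. The probe set that represents the gene, 208763_s_at, and the dimmer one are of the kinds whose probes can match more than 1 transcript.

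**Figure D1:**
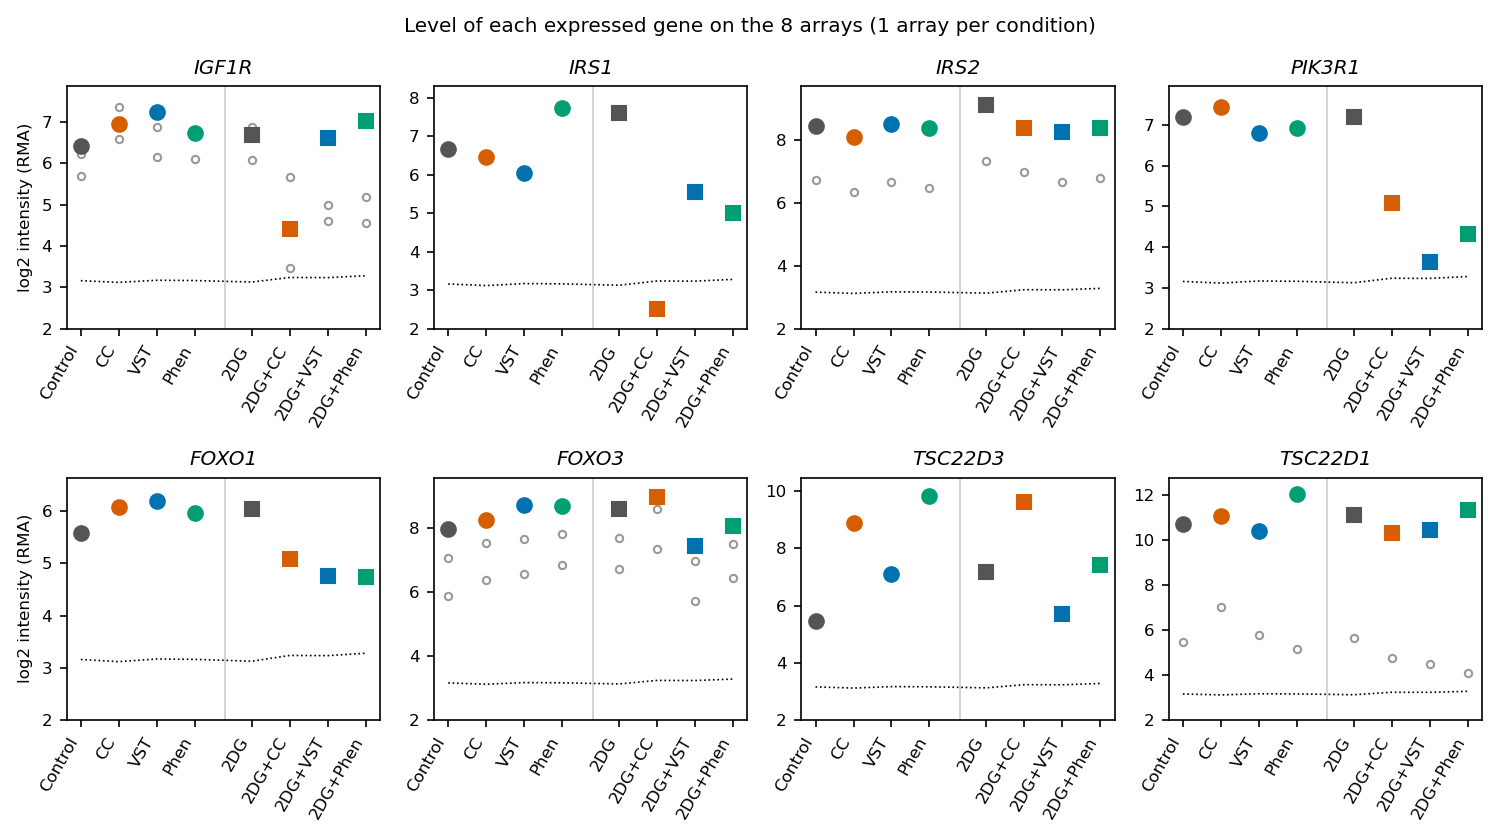
Log2 intensity (y axis) of the 8 expressed genes on the 8 arrays (x axis), circles for normal growth and squares for 2DG, in grey without compound, orange with compound C, blue with versipelostatin and green with phenformin. Large symbols are the probe set that represents the gene, small open circles its other expressed probe sets of 1 gene, and the dotted line the median of each array without the controls; TSC22D3 reaches 9.84 in Phen and IRS1 lies under the dotted line in 2DG+CC.

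Because TSC22D3 and IRS2 are textbook FOXO targets, the bases before their transcription starts were searched for GTAAACA, the FOXO binding element, and for CAAAACA, the insulin response sequence, and also for AGAACA, one side of the palindromic glucocorticoid response element. Each was searched on both strands in the 250 bases before the starts that RefSeq lists on GRCh38.p14, where the 10 genes have 23 starts. GTAAACA lay before 2 of the 23, CAAAACA before 3 and AGAACA before 2, while 2.98%, 4.3% and 12.4% of all 35116 promoters held them. Of 4 starts of TSC22D3, 1 had a match. It is shown here, chrX:107717063-107717312 on the minus strand, written 5′ to 3′ along the gene, with the reverse complement of GTAAACA in capitals, 147 bases before the start. The IRS2 window, chr13:109786584-109786833 on the minus strand, has the reverse complement of CAAAACA in capitals, 40 bases before the start. The IRS1 window, chr2:226799821-226800070 on the minus strand, is shown because IRS1 had the largest downward difference, and these letters were not found in it. A match is a description of letters and not of binding.
TSC22D3: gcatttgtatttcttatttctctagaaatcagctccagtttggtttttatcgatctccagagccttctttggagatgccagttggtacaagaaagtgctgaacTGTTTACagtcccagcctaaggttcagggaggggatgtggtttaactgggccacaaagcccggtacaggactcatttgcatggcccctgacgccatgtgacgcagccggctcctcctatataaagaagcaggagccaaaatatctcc
IRS2: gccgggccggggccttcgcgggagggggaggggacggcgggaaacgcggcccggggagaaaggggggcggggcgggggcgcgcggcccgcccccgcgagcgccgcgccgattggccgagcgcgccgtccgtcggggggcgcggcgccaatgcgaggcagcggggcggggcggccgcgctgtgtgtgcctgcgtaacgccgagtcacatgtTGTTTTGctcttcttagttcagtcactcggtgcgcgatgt
IRS1: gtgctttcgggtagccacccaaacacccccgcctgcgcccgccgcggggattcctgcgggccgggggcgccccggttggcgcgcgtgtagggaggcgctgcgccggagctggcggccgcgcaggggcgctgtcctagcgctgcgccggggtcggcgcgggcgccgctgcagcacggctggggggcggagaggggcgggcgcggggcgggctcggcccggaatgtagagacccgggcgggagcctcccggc

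Of the receptors, INSR, the insulin receptor, was not expressed by the limit used, and IGF1R, the receptor for insulin-like growth factors, was. The 5 probe sets of INSR lay between 1.75 and 3.54 on all arrays. IGF1R read 6.41 in Control, 6.95 in CC, 7.24 in VST and 6.74 in Phen, then 6.69 in 2DG, 4.40 in 2DG+CC, 6.62 in 2DG+VST and 7.02 in 2DG+Phen. On this probe set, which represents the gene, the array with 2DG and compound C stood below the other 7. Its difference from 2DG alone was −2.29, a 4.90-fold lower level, against 0.54 for compound C in normal medium. In 2DG against Control the difference was 0.28, or −0.04 on the poly-A scale. On 203628_at the array with 2DG and compound C was also the lowest, at 3.48. On 225330_at it read 5.68, above 2DG+VST (5.00) and 2DG+Phen (5.17). Compound C in normal medium was 0.89 above Control on 203628_at and 1.14 on 225330_at (0.77 and 1.02 on the poly-A scale).

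The probe sets of IGF1R did not give 1 answer for the other compounds. On 203627_at, which represents the gene, versipelostatin and phenformin differed from 2DG alone by −0.08 and 0.33 (−0.11 for phenformin on the poly-A scale). On 225330_at they differed by −1.87 and −1.70, and on 203628_at by −1.48 and −1.52. A lower level with compound C was common to the expressed probe sets, at −2.29, −1.19 and −2.61 in the order named. Which transcripts the 3 probe sets read was not tested.

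**Figure D2:**
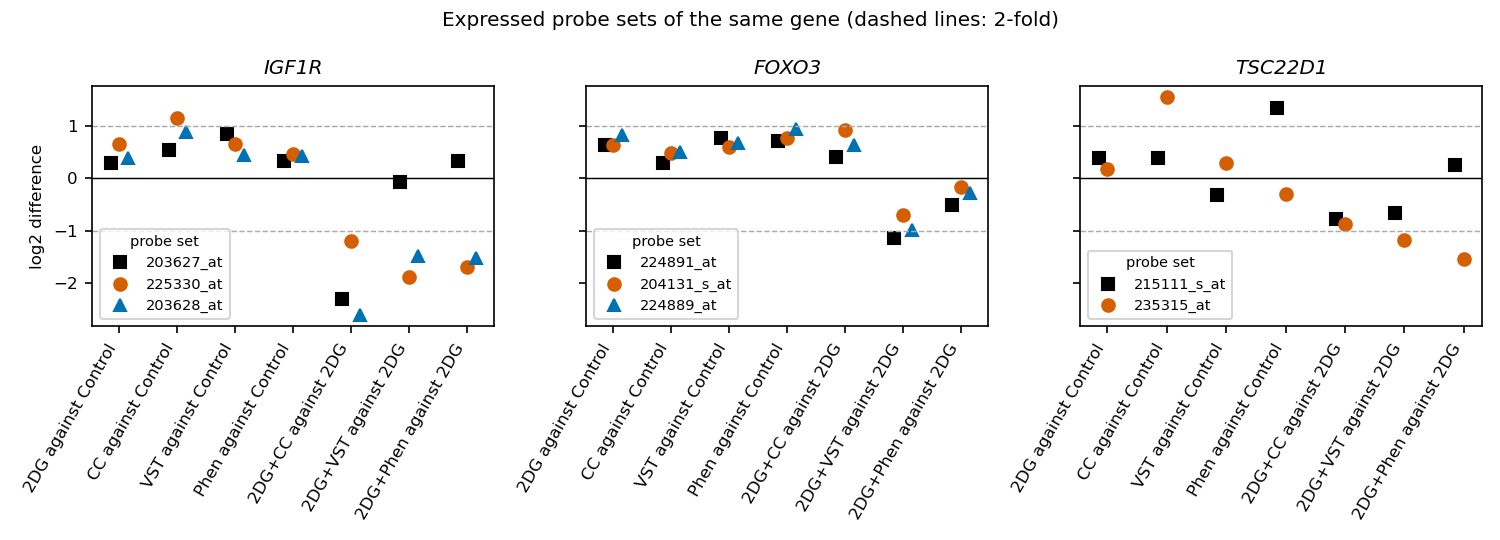
Log2 difference (y axis) in the 7 comparisons (x axis) for each expressed probe set, assigned to 1 gene only, of IGF1R, FOXO3 and TSC22D1, with dashed lines at 2-fold and 1 array against 1 array throughout. The probe sets of FOXO3 lie close together, while those of IGF1R part in 2DG+VST and 2DG+Phen and those of TSC22D1 part in CC, Phen and 2DG+Phen.

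IRS1, the docking protein of both receptors, was much lower with every compound in 2DG than in 2DG alone. It read 6.68 in Control, 6.46 in CC, 6.04 in VST and 7.74 in Phen. It read 7.60 in 2DG, 2.52 in 2DG+CC, 5.55 in 2DG+VST and 5.02 in 2DG+Phen. The values of Phen and 2DG were the highest, and the 3 arrays with 2DG and a compound were the lowest, below every array without that pair. How many of all expressed probe sets share this order was not counted. With compound C the level was not above background, and the difference from 2DG alone was −4.36 or lower. With versipelostatin it was −2.05 (4.14-fold lower) and with phenformin −2.58 (5.98-fold lower).

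In normal medium the compounds parted on IRS1. Phenformin was 1.07 above Control, or 0.76 on the poly-A scale, compound C was at −0.22 and versipelostatin at −0.64, and 2DG alone was 0.92 above Control. For phenformin the difference thus went from 1.07 without 2DG to −2.58 with it. A dimmer probe set, 238933_at, gave −0.67 in 2DG+VST against 2DG and −0.65 in 2DG+Phen. In 2DG+CC it was not above background, and its difference was −1.56 or lower. From Control it gave only 0.19 in Phen and 0.18 in 2DG (−0.12 and −0.15 on the poly-A scale). The third, 242979_at, read 4.80 in Phen and 4.88 in 2DG and was under the background limit in Control, in VST and with 2DG and each compound, so that its difference from 2DG is known only as a bound.

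IRS2, the second docking protein, varied far less. It read 8.44 in Control, 8.08 in CC, 8.51 in VST and 8.39 in Phen, and 9.12 in 2DG, 8.38 in 2DG+CC, 8.24 in 2DG+VST and 8.38 in 2DG+Phen. As deposited, the 2DG array was the highest of the 8, and the other 7 lay within a narrow band. Its difference in 2DG was 0.68 (1.60-fold), and with compound C, versipelostatin and phenformin it was −0.74, −0.87 and −0.73 from 2DG alone, under the 2-fold limit. On the poly-A scale these 3 were −1.78, −1.48 and −1.17. The other probe set, 209184_s_at, gave 0.61 in 2DG, then −0.36, −0.67 and −0.53.

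PIK3R1, the gene of the p85-alpha regulatory subunit, was near its Control level in 2DG (0.01, or −0.31 on the poly-A scale) and much lower when a compound was added. It read 7.19 in Control, 7.44 in CC, 6.81 in VST and 6.92 in Phen, and 7.20 in 2DG, 5.07 in 2DG+CC, 3.63 in 2DG+VST and 4.34 in 2DG+Phen. The first 5 of these levels did not overlap with the last 3. Of all expressed probe sets 23.0%, 18.3% and 20.2% were at least 2-fold lower in 2DG+CC, 2DG+VST and 2DG+Phen than in 2DG. The share that separates in this way was not counted. Against 2DG the difference was −2.13 in 2DG+CC (4.37-fold lower), −3.57 in 2DG+VST (11.9-fold lower) and −2.87 in 2DG+Phen (7.29-fold lower). In 2DG+VST it was at rank 59 from the bottom. The largest difference without 2DG was −0.38, in VST. The dimmer probe set 212240_s_at gave −1.22, −1.21 and −0.68 in the same order, the same direction at a smaller size.

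FOXO1, a forkhead factor that AKT inhibits, was near the limit of 6 and passed it in 3 conditions. Its levels were 5.58 in Control, 6.07 in CC, 6.19 in VST and 5.96 in Phen, and 6.05 in 2DG, 5.09 in 2DG+CC, 4.75 in 2DG+VST and 4.74 in 2DG+Phen. The arrays with 2DG and a compound were the lowest 3, and how many of all expressed probe sets share this order was not counted. Against 2DG the difference was −0.96 in 2DG+CC, −1.29 in 2DG+VST and −1.31 in 2DG+Phen. The other FOXO1 probe set near the limit, 202723_s_at, stayed between 5.05 and 5.50 and gave −0.13, −0.14 and −0.25.

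FOXO3, the second forkhead factor, differed from Control by less than 2-fold under normal growth conditions and in 2DG on the expressed probe sets assigned to it alone. It read 7.95 in Control, 8.24 in CC, 8.71 in VST and 8.66 in Phen, and 8.58 in 2DG, 8.97 in 2DG+CC, 7.43 in 2DG+VST and 8.07 in 2DG+Phen. As deposited, compound C in 2DG gave the highest level and versipelostatin in 2DG the lowest. From 2DG alone the 3 compounds differed by 0.40, −1.14 and −0.51 in the order compound C, versipelostatin and phenformin, and the first turned to −0.64 on the poly-A scale. The other expressed probe sets of FOXO3 alone gave 0.91, −0.70 and −0.17 (204131_s_at) and 0.62, −0.98 and −0.28 (224889_at), of which the values with compound C were −0.13 and −0.42 on the poly-A scale. Another 3 probe sets are assigned to FOXO3 and to FOXO3B, and the brightest of these, 204132_s_at, gave 1.17, 0.18 and 0.43 (0.13, −0.42 and −0.00 on that scale). From Control it gave 1.20 in 2DG, 0.97 in CC, 1.09 in VST and 1.18 in Phen (0.87, 0.85, 1.08 and 0.88 on that scale). These values cannot be given to 1 of the genes.

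TSC22D1, the relative of TSC22D3, was highest with phenformin. It read 10.7 in Control, 11.1 in CC, 10.4 in VST and 12.0 in Phen, and 11.1 in 2DG, 10.3 in 2DG+CC, 10.4 in 2DG+VST and 11.4 in 2DG+Phen. As deposited, the 2 arrays with phenformin were the highest 2. The difference from Control was 1.34 in Phen (2.52-fold), and against 2DG it was −0.77 in 2DG+CC, −0.66 in 2DG+VST and 0.25 in 2DG+Phen (−0.18 on the poly-A scale). The probe set 235315_at went the other way with phenformin, at −0.31 from Control and −1.54 from 2DG alone. It was 1.55 above Control in CC, where 215111_s_at, which represents the gene, gave 0.39.

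Counted over the comparisons with Control, few of the 8 genes differed 2-fold. TSC22D3 was the 1 gene at least 2-fold higher in 2DG, in CC and in VST, where 3.19%, 4.32% and 2.86% of all expressed probe sets were. In Phen there were 3, TSC22D3, TSC22D1 and IRS1, with a background of 2.75%. At least 2-fold lower were 0 of the 8 in each of these comparisons, where the background was 2.53% in 2DG, 2.86% in CC, 3.37% in VST and 3.09% in Phen. The medians over the 8 genes were 0.54 in 2DG, 0.34 in CC, 0.34 in VST and 0.54 in Phen, and those over all expressed probe sets were 0.01, 0.03, −0.01 and −0.04.

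When a compound was added to 2DG, a larger part of all probe sets differed 2-fold. In 2DG+CC the genes lower by 2-fold or more were 3 of the 8 (IRS1, IGF1R and PIK3R1), where 23.0% of all expressed probe sets were, and 1 was higher (TSC22D3), where 11.0% were. With versipelostatin 5 were lower (IRS1, PIK3R1, TSC22D3, FOXO1 and FOXO3, background 18.3%) and 0 higher (6.95%). With phenformin 3 were lower (IRS1, PIK3R1 and FOXO1, background 20.2%) and 0 higher (7.35%). The medians over the 8 genes were −0.86, −1.22 and −0.62, beside −0.13, −0.11 and −0.19 over all expressed probe sets. The genes were chosen with these contrasts known, and nothing is read from their counts. The same 2DG array stands in all 3 comparisons, and the same Control array in the other 4.

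**Figure D3:**
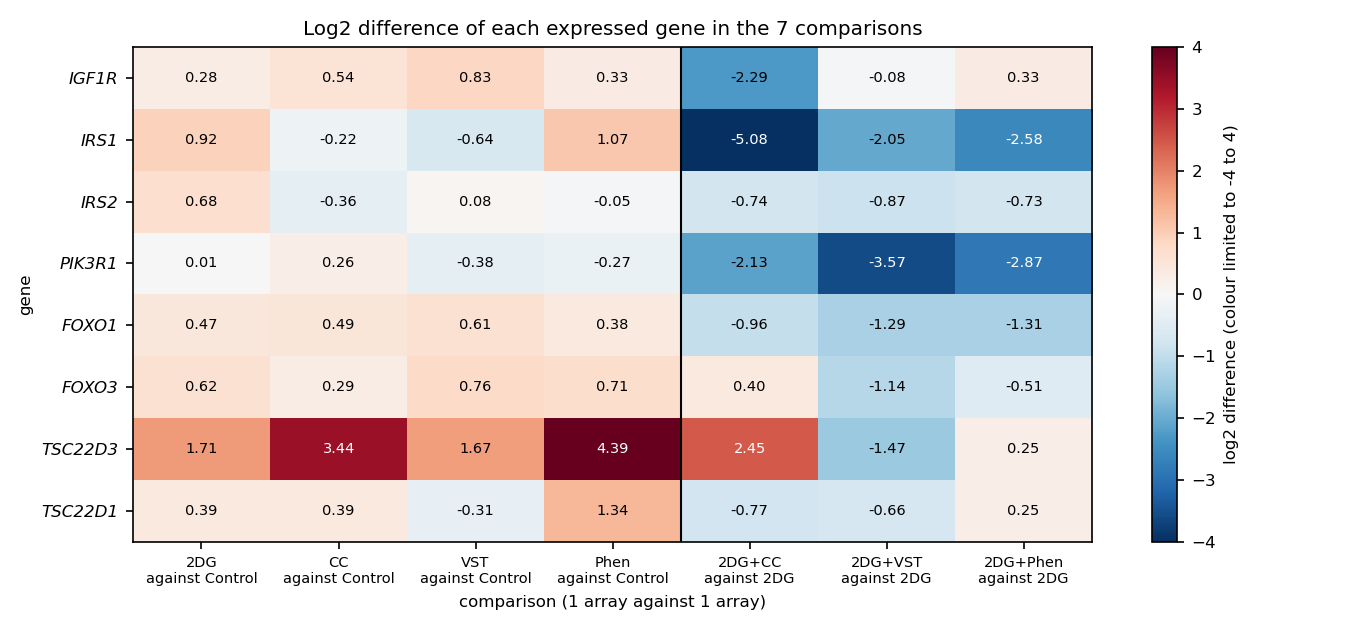
Log2 difference of each of the 8 expressed genes (rows) in the 7 comparisons (columns), 1 array against 1 array, with the value written in each cell and colours limited to −4 and 4. The row of TSC22D3 is red in the 4 comparisons with Control, and IRS1 and PIK3R1 are blue in the 3 comparisons with 2DG (the cell of IRS1 in 2DG+CC shows the deposited value, of which only −4.36 or lower is known).

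**Figure D4:**
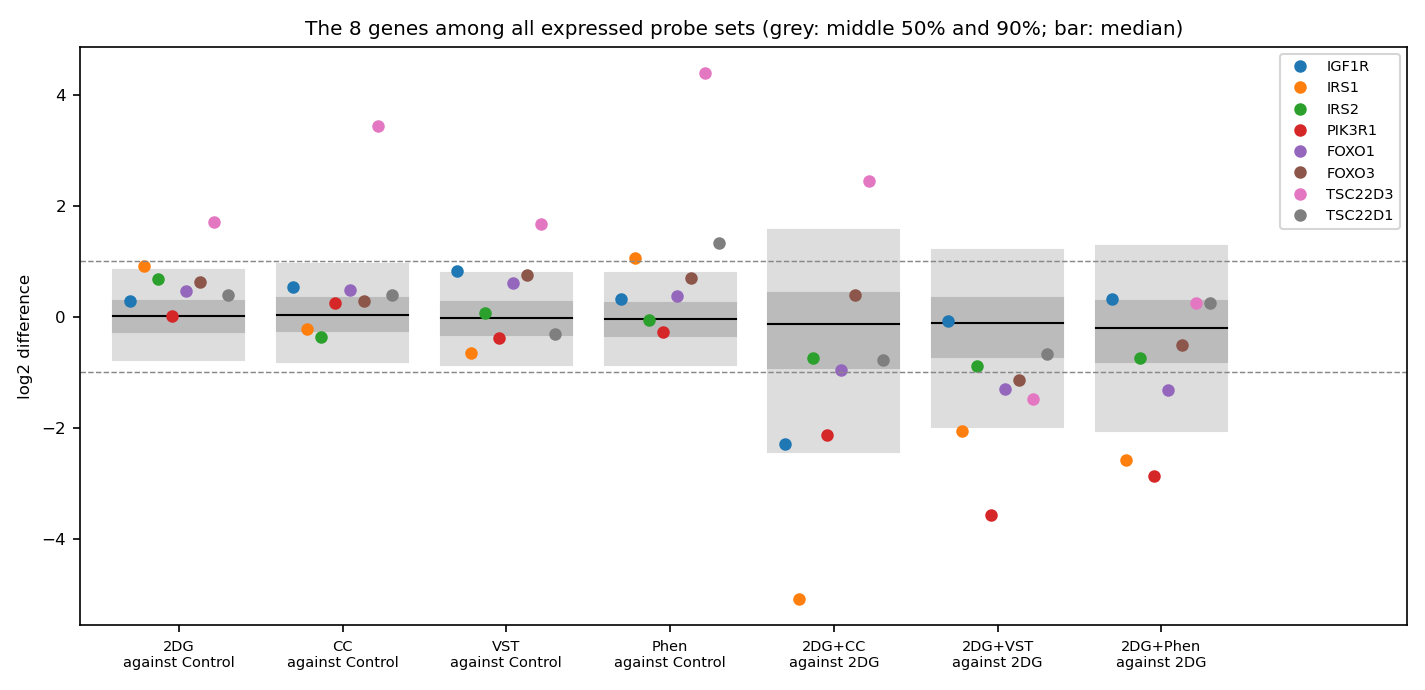
Log2 difference (y axis) of the 8 genes (coloured points) in the 7 comparisons (x axis) over the spread of all 15503 expressed probe sets, with the middle 90% in light grey, the middle 50% in dark grey, the median as a black bar and 2-fold as dashed lines. The grey spread is wider in the 3 comparisons with 2DG, and TSC22D3 at 4.39 in Phen and IRS1 in 2DG+CC lie farthest from 0. The point of IRS1 stands at the deposited value, and its level there was not above background, so that only −4.36 or lower is known.

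For the 4 genes whose level ranged over at least 2 on the log2 scale, the genes of most similar pattern were listed by Pearson correlation over the 8 arrays among 8429 expressed genes. The arrays share 1 normalization and each gene was picked as the highest of all, so these correlations are descriptions. TSC22D3 was most like BHLHE40, a transcriptional repressor of the circadian and hypoxia responses (r = 0.92, 7.70 in Control, 9.31 in CC and 9.70 in Phen), followed by INAFM1 (0.92), MCC (0.91), CHP1 (0.90) and AP1G2 (0.87). PIK3R1 was most like TAF4, a subunit of the general transcription factor TFIID (r = 0.99, 7.56 in 2DG and 4.01 in 2DG+VST), then SHLD2, C19orf12, LEMD3 and TAOK1 (0.99 each). IRS1 was most like RMI2, a subunit of a helicase complex that resolves DNA recombination intermediates (r = 0.98, 7.30 in 2DG and 4.22 in 2DG+CC), then DENND2B, ETV6, PARP4 and LRP11 (0.98 each). IGF1R was most like TRAF4, an adaptor protein (r = 0.99, 6.02 in 2DG and 4.94 in 2DG+CC), then CLPX, ELOVL5, ZCCHC7 and RAB3GAP1 (0.98 to 0.99). Among the 8 genes themselves FOXO1 and PIK3R1 were the closest pair, with r = 0.93. For FOXO1 this is 202724_s_at, between 4.74 and 6.19, while 202723_s_at of the same gene stayed between 5.05 and 5.50.

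Other genes of the pathway were taken from 6 lists, of which 67 of 109 genes were expressed. In the comparisons with Control 5 of the 67 were at least 2-fold higher in 2DG, 7 in CC, 8 in VST and 12 in Phen, where 3.19%, 4.32%, 2.86% and 2.75% of all expressed probe sets were, and on the poly-A scale the counts were 2, 4, 8 and 7. On that scale 1.41%, 3.19%, 2.75% and 1.17% of all expressed probe sets were higher. At least 2-fold lower was 1, MAPKAP1, a subunit of mTORC2, in CC, where 2.86% of all expressed probe sets were. On the poly-A scale 3 were lower in 2DG and 1 in each of the others. The shares lower on that scale were 6.75% in 2DG, 3.99% in CC, 3.54% in VST and 8.79% in Phen. Against 2DG 17 were higher and 13 lower in 2DG+CC, 9 and 22 in 2DG+VST, and 13 and 21 in 2DG+Phen, where the shares of all expressed probe sets were 11.0% and 23.0%, 6.95% and 18.3%, and 7.35% and 20.2%. On the poly-A scale the counts were 6 and 32, 9 and 34, and 10 and 26, with shares of all expressed probe sets of 2.85% and 58.2%, 3.12% and 36.5%, and 4.08% and 33.5%. The median over the 67 was 0.21, −0.55 and −0.32 in this order, or −0.83, −1.15 and −0.76 on the poly-A scale.

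Of 10 expressed receptor adaptors, 3 were lower and 3 higher in 2DG+CC against 2DG, beside 23.0% and 11.0% of all expressed probe sets. On the poly-A scale 5 were lower and 0 higher, beside 58.2% and 2.85% of all expressed probe sets. SOS1 and SOS2, the exchange factors that load RAS with GTP, were lower with every compound in 2DG. Against 2DG, SOS1 was at −2.84 in 2DG+CC, −2.19 in 2DG+VST and −2.25 in 2DG+Phen, and SOS2 at −1.93, −3.26 and −3.17. SHC1, another docking protein, gave −1.40, −0.84 and −0.86. GRB10, an adaptor that inhibits the insulin receptor, was 1.95 above Control in VST, and in 2DG it was 2.01 above 2DG alone with compound C (0.98 on the poly-A scale), −0.70 in 2DG+VST and 0.85 in 2DG+Phen.

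Of 13 expressed genes of PI3-kinase, AKT and their brakes, the number lower by at least 2-fold was 4 in 2DG+CC, 10 in 2DG+VST and 8 in 2DG+Phen, and 1 was higher in 2DG+CC. The shares of all expressed probe sets lower were 23.0%, 18.3% and 20.2%, and 11.0% were higher in 2DG+CC. On the poly-A scale the counts were 9, 12 and 9 lower and 0 higher. There 58.2%, 36.5% and 33.5% of all expressed probe sets were lower. A smaller count with compound C than with phenformin thus depends on the scaling. PIK3CB, a catalytic subunit, was at −1.35 in 2DG+CC against 2DG, −1.87 in 2DG+VST and −1.01 in 2DG+Phen, and PIK3CD, the catalytic subunit best known from leukocytes, at −2.37, −1.84 and −1.41. RICTOR, the defining subunit of mTORC2, gave 0.85 with compound C (−0.19 on the poly-A scale), −3.43 or lower with versipelostatin and −2.99 with phenformin. TRIB3, a pseudokinase that binds AKT, was 2.11 above Control in 2DG, 1.90 in CC, 2.30 in VST and 0.79 in Phen, and against 2DG it was at −1.41 in 2DG+CC, −3.45 in 2DG+VST and −2.38 in 2DG+Phen. The median over the 13 genes was −0.31, −1.31 and −1.18 in 2DG with the 3 compounds (−1.34, −1.92 and −1.62 on the poly-A scale).

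Of 12 expressed effectors of AKT, 2 were lower by at least 2-fold in 2DG+CC, and 4 in 2DG+VST and in 2DG+Phen, beside 23.0%, 18.3% and 20.2% of all expressed probe sets. Their counts were 6, 8 and 6 on the poly-A scale, where 58.2%, 36.5% and 33.5% of all expressed probe sets were lower. GSK3B, a kinase that AKT inhibits, was at −1.89 in 2DG+CC against 2DG, −2.78 in 2DG+VST and −2.99 in 2DG+Phen, and FOXK1, a forkhead repressor, at −2.41, −1.92 and −2.70. TSC1, a brake on mTORC1, was 1.10 above 2DG with compound C (0.06 on the poly-A scale), −1.65 with versipelostatin and −1.77 with phenformin. SGK1, a kinase related to AKT, was 3.05 above 2DG alone with versipelostatin and 3.22 with phenformin, and 0.75 with compound C (−0.29 on that scale). Of 11 IGF ligands, binding proteins and the IGF2 receptor only 3 were expressed. IGFBP6 and IGFBP7, secreted binding proteins, were 1.31 and 1.36 above Control in Phen, and IGF2R, which carries IGF2 to the lysosome, differed from 2DG alone by −1.41, −1.04 and −1.64.

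Genes known as FOXO targets include inhibitors of the cell cycle and stress sensors. Of 22 expressed, 9 were at least 2-fold higher in Phen, 5 in VST and 4 in CC and in 2DG, and 0 were lower. On the poly-A scale 5 were higher in Phen, 5 in VST, 2 in CC and 1 in 2DG, and 1 was lower in VST and 1 in 2DG. The shares of all expressed probe sets at least 2-fold higher, as deposited, were 2.75%, 2.86%, 4.32% and 3.19% in the same order. On the poly-A scale they were 1.17%, 2.75%, 3.19% and 1.41%, and those lower were 3.54% in VST and 6.75% in 2DG. The median over the list was 0.85 in Phen, 0.29 in VST, 0.66 in CC and 0.32 in 2DG, the last being −0.01 on the poly-A scale. In Phen the 9 included KLF2, a Krüppel-like factor (2.08), CCNG2, an atypical cyclin (1.80), CDKN1A, the CDK inhibitor p21 (1.60), and CDKN1B, the CDK inhibitor p27 (1.08, or 0.78 on the poly-A scale). Many genes of this list are also induced by other stress pathways, and TRIB1 is also in the list of AKT brakes, as SGK1 is in both the list of effectors and that of glucocorticoid-responsive genes.

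In 2DG the FOXO target genes parted in both directions. With compound C 8 were at least 2-fold higher and 3 lower than in 2DG alone, with versipelostatin 5 and 6, and with phenformin 7 and 5, beside 11.0% and 23.0%, 6.95% and 18.3%, and 7.35% and 20.2% of all expressed probe sets. The balance with compound C turned on the poly-A scale, to 6 higher and 9 lower, and the others were 5 and 8, and 6 and 6. The shares of all expressed probe sets on that scale were 2.85% and 58.2%, 3.12% and 36.5%, and 4.08% and 33.5%. The medians over the FOXO target genes were 0.31, −0.03 and −0.03 (on the poly-A scale −0.73, −0.63 and −0.47, and centred on the expressed probe sets 0.52, 0.20 and 0.25). CITED2, a transcriptional coregulator, was higher by 2.95, 3.31 and 3.82, and GADD45B, a stress sensor, by 5.44, 2.94 and 2.05. CDKN1B was lower with all 3, by values of −3.03, −3.29 and −3.14. TXNIP, an arrestin-like regulator of glucose uptake, was 3.47 above Control in 2DG and lay 0.27 above 2DG in 2DG+CC (−0.77 on the poly-A scale), with −1.82 in 2DG+VST and −1.72 in 2DG+Phen.

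**Figure D5:**
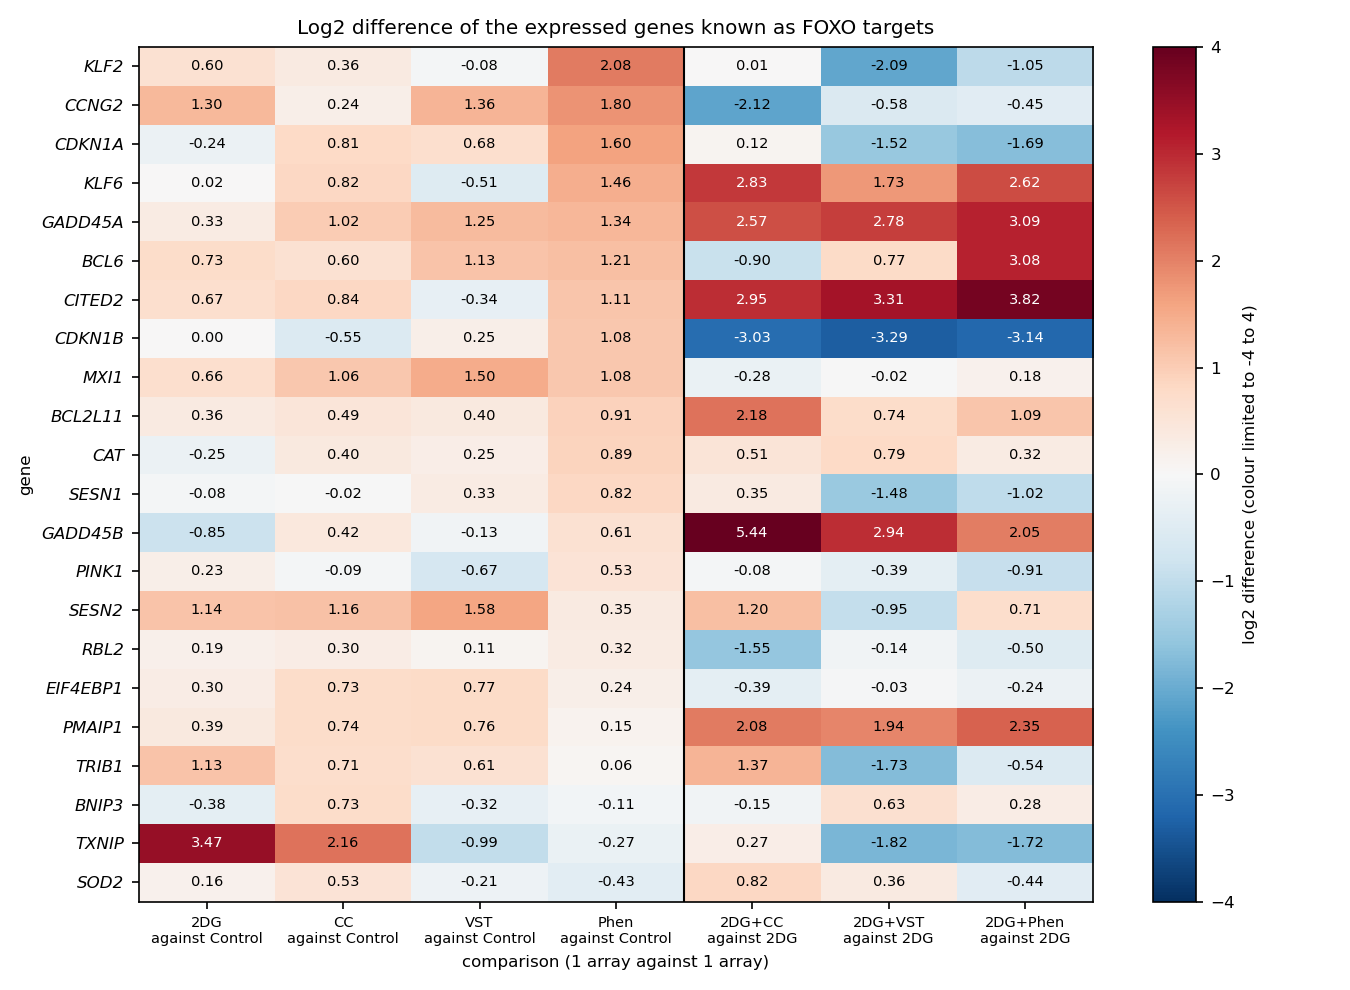
Log2 difference of the 22 expressed genes known as FOXO targets (rows, ordered by the value in Phen against Control) in the 7 comparisons (columns), with the value in each cell and colours limited to −4 and 4. The column of Phen holds 9 genes at or above 1 and none at or under −1, while the 3 columns with 2DG as reference hold both colours.

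Genes of the TSC22 family and genes known to respond to glucocorticoids were mostly within 2-fold of Control. Of 9 expressed, 0 were at least 2-fold higher in 2DG, 2 in CC, 1 in VST and 1 in Phen, beside 3.19%, 4.32%, 2.86% and 2.75% of all expressed probe sets, and 0, 1, 1 and 0 were on the poly-A scale, where 2 were lower in 2DG. On that scale 1.41%, 3.19%, 2.75% and 1.17% of all expressed probe sets were higher, and 6.75% were lower in 2DG. The medians over the 9 genes were 0.00, −0.06, 0.02 and 0.24 (−0.33, −0.18, 0.01 and −0.07 on the poly-A scale). DUSP1, a phosphatase of MAP kinases, was higher than Control by 2.45 in CC, 1.32 in VST and 1.13 in Phen (0.82 on the poly-A scale) and gave −0.72 in 2DG. Against 2DG 4 of the 9 were higher in 2DG+CC, 4 in 2DG+VST and 6 in 2DG+Phen, beside 11.0%, 6.95% and 7.35% of all expressed probe sets, and 0 were lower. With the poly-A scale 0, 4 and 4 were higher, and 2 were lower in 2DG+CC and 1 in 2DG+VST. Of all expressed probe sets 2.85%, 3.12% and 4.08% were then higher, and 58.2% and 36.5% lower in 2DG+CC and 2DG+VST. TSC22D2, another relative of TSC22D3, was higher by 1.36 (0.32 on the poly-A scale), 2.14 and 2.26, and NFKBIA, the inhibitor of NF-kappaB, gave 0.61 (−0.42), 2.81 and 2.45. In 2DG+VST against 2DG the relatives thus parted, with TSC22D3 at −1.47 and TSC22D2 at 2.14.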

How the data were processed

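Each array was deposited as log2 intensity per probe set, computed by the authors with RMA, which subtracts background, brings the arrays to one distribution and summarises the probes of a set. Its program and version: not given in the sources used here. One array per condition was deposited, and replicates were not pooled. The 10 genes, the 6 lists of pathway genes, the markers, the thresholds and the alternatives were chosen with earlier results of these data known.

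Of all probe sets 62 were controls, 24 of them poly-A and 18 hybridization controls, and they were left out. Genes came from the platform annotation, with symbols updated through gene identifiers, and probe sets of several genes named none. Differences were taken between single arrays in 7 comparisons with no further normalization and no test, and 2-fold was the limit for a count. A value not above background was put at the median of its array, and the difference was given as a bound. Shares of all features were counted over 15503 probe sets and differed by at most 2.86 percentage points when counted over 8429 genes. The named genes are the 10 genes, up to 4 of each list with the largest difference in any comparison, other list members chosen after their values were seen (KLF2, CCNG2, CDKN1A and MAPKAP1), and the 5 of most similar pattern. The counting code was checked on simulated data with differences far from the 2-fold limit, so that values near the limit were not tested. Promoters came from RefSeq on GRCh38.p14. Python 3.11.15, numpy 2.4.6, pandas 2.3.3 and matplotlib 3.10.9 were used.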

Additional observations from a re-analysis of the deposited data

Results flagged for a closer look

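TSC22D3 and IRS1 had differences of at least 2-fold in opposite directions in the 2 media. TSC22D3 with versipelostatin was 1.67 above Control under normal growth conditions and −1.47 from 2DG alone under 2DG stress conditions. The difference that 2DG made for it was 1.71 without a compound, −1.43 with versipelostatin and −2.43 with phenformin. IRS1 with phenformin was 1.07 above Control in normal medium and −2.58 from 2DG alone in 2DG. Each value is 1 array against 1 array, so the difference between the media was not tested, and the dimmer probe set of TSC22D3 gave 0.27 in 2DG+VST against 2DG, or −0.33 on the poly-A scale. On the poly-A scale the value of IRS1 with phenformin in normal medium was 0.76, under the 2-fold limit. The dimmer probe set 238933_at of IRS1 gave 0.19 there as deposited (−0.12 on the poly-A scale), and −0.65 in 2DG+Phen against 2DG. The third and dimmest, 242979_at, gave as deposited 1.64 or higher in Phen against Control and −1.60 or lower in 2DG+Phen against 2DG.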

How the results depend on the processing

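The 7 alternatives were the poly-A scaling, centring on the median of the expressed probe sets, quantile normalization, the median of all expressed probe sets of a gene, an expression limit of 7, a limit of 1.5-fold, and leaving out the probe sets whose names end in _s_at, _x_at or _a_at. Of 98 counts of genes higher or lower, 89 were within 1.5 times the count given. Scaled on the poly-A controls, 6 genes in place of 3 were lower in 2DG+CC, where 58.2% of all expressed probe sets were, in place of 23.0%. At 1.5-fold that count was also 6, 4 genes were higher in 2DG and 4 in VST, and 1 was lower in VST. The shares of all expressed probe sets at 1.5-fold were not counted, so nothing is read from the counts at that limit. Without the named kinds of probe set 5 genes were left, TSC22D3 not among them, and 0 were higher in 2DG, 0 in VST and 0 in 2DG+CC, and 1 in Phen. There TSC22D1 in Phen was represented by another probe set and gave −0.31 in place of 1.34. FOXO3 in 2DG+VST was −0.92 when centred, FOXO1 in 2DG+Phen −0.98 after quantile normalization, and IGF1R in 2DG+VST and 2DG+Phen −1.48 and −1.52 as the median of its probe sets. An expression limit of 7 left out FOXO1. No paired analysis was possible because each condition has 1 array. Differences near the background limit are bounded by the array's signal and not by depth.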
